A study of Mus musculus with 8 samples.

Results

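Small nucleolar RNAs, Cajal body RNAs and Y RNAs are short noncoding RNAs, most of which work in the nucleus. They were followed here in RNA from mouse medial prefrontal cortex (mPFC), in ribosome pull-downs and in unpurified input. Members were taken by name, as genes called Snord or Snora, Scarna or Rny followed by a digit, on probe sets (the groups of array probes that share a target) annotated with 1 gene symbol. Of 22180 genes named in this way, 80 were members: 47 box C/D small nucleolar RNAs (Snord), 26 box H/ACA small nucleolar RNAs (Snora), 5 Cajal body RNAs (Scarna) and 2 Y RNAs (Rny). Where a gene had several such probe sets, the one with the highest mean over the 8 arrays stood for it. The test took in each gene that was brighter than the array's median of named genes on at least 2 arrays. That held for 11712 genes and for 39 of the 80 members: 21 box C/D, 12 box H/ACA, 4 Cajal body and 2 Y RNAs.

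Box C/D RNAs carry the protein fibrillarin and guide the methylation of ribose sugars in ribosomal RNA, and box H/ACA RNAs carry dyskerin and guide the conversion of uridine to pseudouridine. Most are cut from the introns of host genes, many of which code for ribosomal proteins or are long noncoding RNAs of the Snhg kind, and the finished particles collect in the nucleolus. Cajal body RNAs use the same machinery on the small nuclear RNAs of the spliceosome. Y RNAs are made from genes of their own by RNA polymerase III, bind the ring-shaped protein Ro60, and are found in both nucleus and cytoplasm.

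The mice carried a ribosomal tag with green fluorescent protein (GFP) that Cre recombinase switches on. CAV2-Cre, a canine adenovirus that enters at axon terminals and brings Cre to the cell body, was given in VTA or in NAC, as the labels write these targets. There were 4 groups of 2 arrays each: GFP-trap pull-downs from VTA-projecting mPFC cells, GFP-trap pull-downs from NAC-projecting mPFC cells, the mPFC input of the VTA injections and the mPFC input of the NAC injections. Strain, sex, age and time after injection are not known here. Every group carried the tag and received the virus, and the inputs hold all cells of the dissected tissue. Nothing in the labels traces the arrays of a group to separate animals, so a p-value here measures only the spread between these arrays, which may be technical.

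Values are log2 signals, on which a difference of 1 is a doubling, and levels of different probe sets are not compared. Array medians over the named genes lay between 5.86 and 5.98. Rpl10a, a large-subunit ribosomal protein gene that often carries the tag in lines of this kind (its use here is not stated), had values of 11.94 and 11.95 in VTA pull-downs and 12.05 and 12.11 in NAC pull-downs, against 9.87 and 10.35 in VTA inputs and 10.92 and 10.94 in NAC inputs. Cortical projection neuron markers were present on all arrays, with list means of 9.99 to 10.08 in pull-downs and 9.95 to 10.03 in inputs. Of these 9 markers 2 were lower and 3 higher in the pull-downs at a limma adjusted p of 0.05, beside 32% of all tested genes lower and 9.6% higher. Of other cells, 8 of 9 oligodendrocyte, 8 of 9 microglia, 7 of 9 astrocyte, 7 of 9 interneuron and 5 of 8 endothelial markers fell, and 1 of these rose, the endothelial gene Egfl7 (0.54, limma adjusted p 0.00070). Oligodendrocyte list means were 9.04 to 9.14 in pull-downs and 9.48 to 9.70 in inputs. Those of microglia were 7.52 to 7.82 in pull-downs and 7.91 to 8.34 in inputs, and those of astrocytes 8.87 to 9.01 in pull-downs and 9.23 to 9.41 in inputs. Interneuron means were 7.998 to 8.23 in pull-downs and 8.46 to 8.52 in inputs, and endothelial means 6.60 to 6.82 in pull-downs and 6.86 to 7.01 in inputs. The log2 scale has no zero, so no marker can be called absent, and the part of these other cells in the results below was not tested.

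The first comparison set the signal of each small RNA in pull-downs against that in inputs, as the mean of the VTA and NAC differences. Since the inputs hold all cells, this is a relative signal and not the amount bound to tagged ribosomes. Members were lower in the pull-downs in all 4 classes, and no member was higher. Without the filter on low values, 44 of the 80 members were lower and 0 higher by limma at an adjusted p of 0.05 (Benjamini-Hochberg over 22180 genes). Over all those genes, 10.8% were lower and 4.76% higher. At an unadjusted p under 0.05, limma gave 54 lower and 2 higher members, Snord23 and Snord43. Here and below, the share of all genes at this unadjusted threshold was counted only for the difference of enrichment. The other unadjusted counts are thus descriptions. The median difference was −0.44 over the 80 members and −0.004 over all genes. The difference was below 0 in 65 of the 80 members and in 50.7% of all genes. Without the filter 36 of the 22180 genes, or 0.162%, were called and at least 2-fold lower, and 22 of these were members. In 38 of the 80 every pull-down lay below every input, which held for 14.2% of all genes.

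Among the 39 members that passed the filter, 32 were lower and 0 higher, beside 32% of the 11712 tested genes lower and 9.6% higher. The median difference was −0.83 for these members and −0.11 for all tested genes, and 35 of them against 67.3% of tested genes had a difference below 0. In 25 every pull-down lay below every input, as in 24.8% of tested genes. Of the 39, 13 exceeded the array median in inputs only and would not have been tested had they been as dim there as in the pull-downs. The count over the 39 and the p-values of these 13 between pull-down and input are thus descriptions. At an unadjusted p under 0.05 limma gave 32 members lower and 1 higher, Snord23. In bulk samples such as these, fewer cells of a type and less RNA per cell cannot be told apart.

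**Figure D1:**
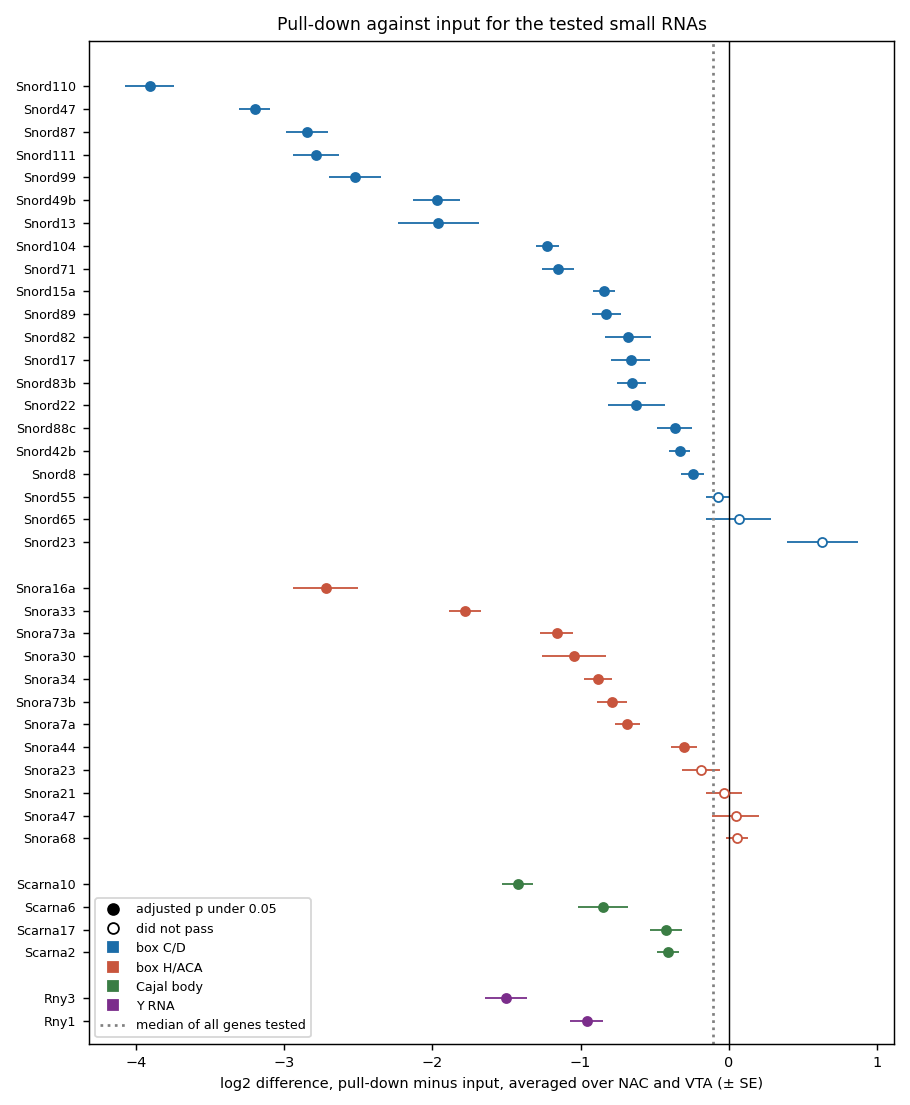
Each point is the log2 difference between pull-downs and inputs, averaged over the 2 targets, for 1 of the 39 tested members (bars, ± SE of the limma model; filled, adjusted p under 0.05; dotted line, median of all tested genes at −0.11). The box C/D members spread from −3.90 for Snord110 to 0.63 for Snord23, the 4 Cajal body members lie between −1.43 and −0.41, and the 2 Y RNAs at −1.50 and −0.96.

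Box C/D RNAs showed the deepest falls, and 18 of the 21 tested were lower. Of these 21, 10 exceeded the array median in inputs only, so this count is a description. In the fit without the filter 26 of the 47 box C/D members were lower and 0 higher, beside 10.8% of all genes lower. Snord110, which guides a methylation of the small-subunit ribosomal RNA in humans, had values of 5.39 and 5.03 in VTA pull-downs and 6.24 and 5.40 in NAC pull-downs, against 9.43 and 9.35 in VTA inputs and 9.61 and 9.30 in NAC inputs. All 4 pull-downs lay far below all 4 inputs, and of the pull-downs the first NAC array alone was above its array median. The mean was 5.52 ± 0.51 in pull-downs and 9.42 ± 0.13 in inputs (SD, n = 4 each), a difference of −3.90 (SE 0.16), or 15.0-fold lower, with a limma adjusted p (Benjamini-Hochberg) of 2.1e-06. Where pull-down signals are as dim as this, the size of a fold is uncertain.

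Snord47, a guide for the large-subunit ribosomal RNA in humans, had values of 4.82 and 4.81 in VTA pull-downs and 4.65 and 4.33 in NAC pull-downs, against 7.42 and 7.84 in VTA inputs and 8.01 and 8.13 in NAC inputs. Pull-downs and inputs did not overlap, and the gap was wider than the spread on either side. The difference was −3.20 (SE 0.10; limma adjusted p 3.2e-07). Snord87, a large-subunit guide in humans, had values of 5.52 and 5.34 in VTA pull-downs and 5.91 and 5.43 in NAC pull-downs, against 8.09 and 8.58 in VTA inputs and 8.65 and 8.25 in NAC inputs. Its pull-downs lay just under the array medians and its inputs well above them (difference −2.84, SE 0.14; limma adjusted p 5.4e-06).

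Snord111 and Snord99 had inputs only a little above the array medians and pull-downs well under them. Like Snord47, Snord87 and Snord13, they exceeded the array median in inputs only, so the p-values of these members are descriptions. Snord111, a large-subunit guide in humans, had values of 3.89 and 3.90 in VTA pull-downs and 3.52 and 3.02 in NAC pull-downs, against 6.67 and 6.06 in VTA inputs and 6.60 and 6.14 in NAC inputs. Snord99 had 4.25 and 4.16 in VTA pull-downs and 4.08 and 3.51 in NAC pull-downs, against 7.0 and 6.38 in VTA inputs and 6.65 and 6.04 in NAC inputs. The differences were −2.79 (SE 0.16) for Snord111 and −2.52 (SE 0.18) for Snord99, with limma adjusted p-values of 1.4e-05 and 6.3e-05. Snord49b had 5.83 and 6.53 in VTA pull-downs and 6.34 and 6.21 in NAC pull-downs, against 7.97 and 8.56 in VTA inputs and 8.07 and 8.19 in NAC inputs. Its pull-downs straddled the medians, and it fell by 1.97 on the log2 scale (SE 0.16; limma adjusted p 0.00014).

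Snord13 differs from the others of its class in having its own promoter and in taking part in the processing and acetylation of small-subunit ribosomal RNA. It had values of 4.27 and 4.80 in VTA pull-downs and 4.13 and 4.96 in NAC pull-downs, against 5.72 and 7.05 in VTA inputs and 6.42 and 6.80 in NAC inputs. The inputs were the more scattered side and still did not reach down to the pull-downs (difference −1.96, SE 0.27; limma adjusted p 0.00097). The other 11 box C/D members that fell ran from −1.23 for Snord104 to −0.24 for Snord8. Among these were Snord8, a guide for the U6 spliceosomal RNA (−0.24), and Snord22, which is needed for small-subunit ribosomal RNA maturation in Xenopus oocytes (−0.62). Snord22 differed by 0.16 in VTA, where it did not pass (limma adjusted p 0.68), and by −1.41 in NAC (limma adjusted p 0.015). With arrays centred on their medians, Snord8, Snord22 and Snord88c did not pass (limma adjusted p 0.35, 0.080 and 0.17).

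The 3 box C/D members that did not pass were Snord55, Snord65 and Snord23. Snord55 had a difference of −0.07 and Snord65 of 0.06. Snord23 was alone in leaning upward by more than its error. It had values of 9.93 and 8.69 in VTA pull-downs and 8.80 and 9.36 in NAC pull-downs, against 8.10 and 8.54 in VTA inputs and 8.97 and 8.64 in NAC inputs. Pull-downs and inputs overlapped, and the VTA pull-downs lay far apart (difference 0.63, SE 0.24; limma adjusted p 0.057). It was called higher without the second VTA pull-down (0.94, limma adjusted p 0.0025) and without the first NAC pull-down (0.77, limma adjusted p 0.033). With a variance trend on signal level (0.63, limma adjusted p 0.014) and with arrays centred (0.77, limma adjusted p 0.045) it was called higher too.

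**Figure D2:**
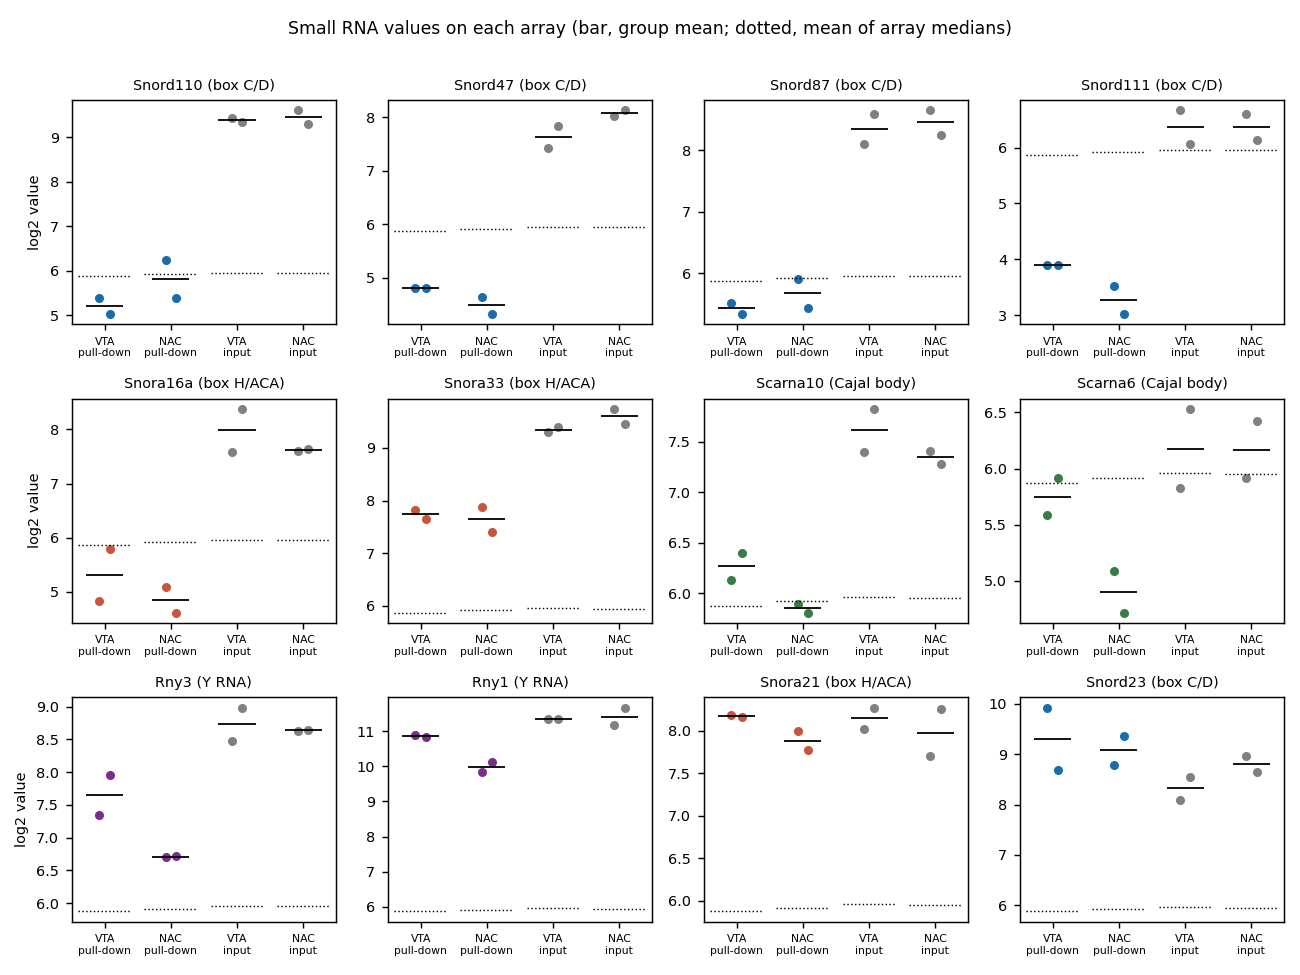
Log2 value of 12 members on each of the 8 arrays (points, arrays; bars, mean of 2 arrays; dotted lines, mean of the array medians over named genes), with VTA and NAC pull-downs left of their inputs. Snord110, Snord47, Snord87 and Snord111 lie near or under the medians in pull-downs and above them in inputs, Rny1 and Rny3 differ between the VTA and NAC pull-downs, and Snora21 and Snord23 overlap between pull-downs and inputs.

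Of the 12 box H/ACA members tested, 8 fell and 0 rose, with a median difference of −0.74. Among these 12, 3 exceeded the array median in inputs only, so this count too is a description. In the fit without the filter 12 of the 26 box H/ACA members were lower and 0 higher, beside 10.8% of all genes lower. Snora16a had values of 4.83 and 5.79 in VTA pull-downs and 5.09 and 4.62 in NAC pull-downs, against 7.59 and 8.38 in VTA inputs and 7.60 and 7.63 in NAC inputs. The second VTA array was the highest on both sides, and no pull-down came near an input. The difference was −2.72 (SE 0.22), or 6.58-fold lower, with a limma adjusted p of 0.00013. Snora16a exceeded the array median in inputs only, so its p-value is a description. Snora33, which lies in the ribosomal protein gene Rps12, had 7.83 and 7.65 in VTA pull-downs and 7.88 and 7.41 in NAC pull-downs, against 9.30 and 9.39 in VTA inputs and 9.74 and 9.46 in NAC inputs. All 8 values were above the array medians, so this fall of 1.78 on the log2 scale was measured on bright signal at both ends (SE 0.11; limma adjusted p 2.9e-05). A second, dim probe set of Snora33 differed by 0.08.

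Snora73a and its near copy Snora73b, both from the U17 family that takes part in cleaving the precursor of small-subunit ribosomal RNA, can share probe signal. Snora73a had values of 5.68 and 5.68 in VTA pull-downs and 5.06 and 4.76 in NAC pull-downs, against 6.68 and 7.14 in VTA inputs and 5.90 and 6.09 in NAC inputs. The VTA arrays were higher than the NAC arrays on both sides, and pull-downs lay below inputs within each target (difference −1.16, SE 0.11; limma adjusted p 0.00020). Snora73a exceeded the array median in inputs only, so its p-value is a description. Snora73b differed by −0.79 (SE 0.10; limma adjusted p 0.00062). Snora30 had 5.98 and 4.85 in VTA pull-downs and 5.01 and 5.62 in NAC pull-downs, against 6.24 and 6.43 in VTA inputs and 6.55 and 6.42 in NAC inputs. Its pull-downs were scattered and its inputs tight (difference −1.05, SE 0.22; limma adjusted p 0.0048).

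The remaining box H/ACA members that fell were Snora34 (−0.88), Snora7a (−0.68) and Snora44 (−0.30). Snora44 did not pass once the arrays were centred (limma adjusted p 0.20). The 4 that did not pass were Snora23 (−0.19), Snora21, Snora47 and Snora68. Snora21 had 8.18 and 8.16 in VTA pull-downs and 7.997 and 7.77 in NAC pull-downs, against 8.02 and 8.27 in VTA inputs and 7.70 and 8.25 in NAC inputs, and its values overlapped throughout (difference −0.03, SE 0.12; limma adjusted p 0.84). Snora47 differed by 0.05 (SE 0.16) and Snora68 by 0.06 (SE 0.08). Without the second VTA pull-down Snora47 was called higher (0.27, limma adjusted p 0.017), and without the first its difference was −0.18.

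All 4 Cajal body members tested fell, by less than the leading small nucleolar RNAs. In the fit without the filter 4 of the 5 were lower and 0 higher, beside 10.8% of all genes lower. Scarna10, which guides modification of the U5 spliceosomal RNA, had values of 6.13 and 6.40 in VTA pull-downs and 5.89 and 5.81 in NAC pull-downs, against 7.40 and 7.83 in VTA inputs and 7.41 and 7.28 in NAC inputs. Both sides were tight and did not overlap (difference −1.43, SE 0.10, 2.69-fold lower; limma adjusted p 8.1e-05). Scarna6 had 5.59 and 5.92 in VTA pull-downs and 5.08 and 4.72 in NAC pull-downs, against 5.83 and 6.53 in VTA inputs and 5.92 and 6.42 in NAC inputs. Here the second VTA pull-down lay above the first VTA input and level with the first NAC input (difference −0.85, SE 0.17; limma adjusted p 0.0041). Scarna17 had 6.57 and 6.98 in VTA pull-downs and 6.71 and 6.33 in NAC pull-downs, against 7.13 and 7.06 in VTA inputs and 7.002 and 7.10 in NAC inputs. The inputs were nearly equal and the second VTA pull-down lay just under them (difference −0.42, SE 0.11; limma adjusted p 0.013). A second probe set of Scarna17 differed by −0.89, and without the first VTA input the probe set used gave −0.41 with a limma adjusted p of 0.054. Scarna2, a guide for the U2 spliceosomal RNA, differed by −0.41 (SE 0.07; limma adjusted p 0.0024).

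Both Y RNAs were lower in the pull-downs, and both were bright on all 8 arrays. Rny3 had values of 7.35 and 7.96 in VTA pull-downs and 6.70 and 6.72 in NAC pull-downs, against 8.47 and 8.99 in VTA inputs and 8.63 and 8.65 in NAC inputs. The NAC pull-downs were the lowest arrays and the VTA pull-downs came between them and the inputs. The difference was −1.50 (SE 0.14), or 2.83-fold lower, with a limma adjusted p of 0.00020. Rny1 had 10.90 and 10.82 in VTA pull-downs and 9.83 and 10.13 in NAC pull-downs, against 11.33 and 11.36 in VTA inputs and 11.16 and 11.67 in NAC inputs. As for Rny3, the NAC pull-downs were lowest and the VTA pull-downs lay between them and the inputs. The gap was smaller (difference −0.96, SE 0.11, 1.94-fold lower, limma adjusted p 0.00043).

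The 41 members under the filter had means over the arrays of 2.38 to 5.58. In the fit without the filter 16 of them were lower and 0 higher, beside 10.8% of all genes lower and 4.76% higher. The share among all genes under the filter was not counted. The differences of the 41 ran from −2.55 to 0.24 with a median of −0.29, beside −0.004 over all genes. The lowest was Snord61, with 2.90 and 2.93 in VTA pull-downs and 3.71 and 2.76 in NAC pull-downs, against 5.40 and 5.82 in VTA inputs and 5.67 and 5.60 in NAC inputs. It stayed under the median on every array, even in the inputs. Just outside the filter, with 1 array above the median, were Snora28 (−0.89), Snord35a (−1.46) and Snord49a (−1.08). Just inside it, with 2 arrays above, were Snora68 (0.06), Snord15a (−0.84), Snord17 (−0.66) and Snord83b (−0.66).

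Within each target the pull-down was then compared with its own input. In VTA samples 25 members were lower and 1 higher (background 25.9% and 5.44% of tested genes), with a median of −0.70 for members and −0.15 for all tested genes. In NAC samples 25 were lower and 0 higher (background 8.01% and 4.34%), with a median of −0.997 for members and −0.06 for all tested genes. Of the 39 members, 13 exceeded the array median in inputs only, so these counts are descriptions. The backgrounds depended on the filter, on scaling and on single arrays. In VTA without the filter, 29 of 80 members were lower and 0 higher, beside 1355 and 552 of 22180 genes. In NAC without the filter, 19 of 80 members were lower and 0 higher, beside 56 and 49 genes. With arrays centred, 1083 of all tested genes were lower and 1719 higher in VTA, against 3034 and 637 as deposited, and 19 members were lower and 1 higher. In NAC 643 were lower and 905 higher with centring, against 938 and 508 as deposited, and 24 members were lower and 0 higher. Genes called lower in VTA numbered 336 without the first VTA input, 1603 without the second and 1404 without the first VTA pull-down, with 19, 20 and 19 members among them. In NAC they numbered 73 without the first NAC input, 94 without the second, 91 without the second NAC pull-down and 535 without either VTA input, with 17, 17, 18 and 23 members among them. At an unadjusted p under 0.05, limma gave 26 lower and 1 higher in VTA and 32 lower and 0 higher in NAC. Members called lower in both targets numbered 21, with 4 called lower in VTA alone, 4 in NAC alone and 10 in neither. Those 10 include Snord23, which was called higher in VTA. This split was not counted over all tested genes, so it only describes the 39 members.

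The deepest falls were seen in both targets. Snord110 differed by −4.17 in VTA and −3.64 in NAC (SE 0.23 each), and Snord47 by −2.82 in VTA and −3.58 in NAC (SE 0.15 each). Snord111 differed by −2.47 in VTA and −3.10 in NAC (SE 0.22 each), and Snord87 by −2.91 in VTA and −2.78 in NAC (SE 0.20 each). Of these 4 guides, 3 lay under the array median in every pull-down, and Snord110 in all but the first NAC one. Snora16a, Snord99, Snord49b, Snord13 and Snora33 lay between −2.67 and −1.60 in VTA and between −2.76 and −1.85 in NAC. Limma adjusted p-values for these 9 were at most 0.0083 in VTA and at most 0.012 in NAC. Of these 9, only Snord110, Snord49b and Snora33 exceeded an array median in pull-downs too, so the p-values of the others are descriptions. Without the first VTA pull-down Snord13 did not pass in VTA (−1.59, limma adjusted p 0.050), nor in NAC without the first or the second NAC input (−2.25 and −1.88, limma adjusted p 0.068 and 0.091). The 1 member called higher in VTA was Snord23 (0.99, SE 0.34; limma adjusted p 0.049), which differed by 0.27 in NAC and did not pass there. Snord23 in VTA did not pass without the first VTA pull-down (0.37, limma adjusted p 0.32), the first VTA input (0.77, limma adjusted p 0.27), the second VTA input (1.21, limma adjusted p 0.089) or either NAC input (0.99, limma adjusted p 0.068).

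Whether the difference itself changed with the target was tested by subtracting the NAC difference between pull-down and input from the VTA one. No member passed, beside 0.0598% of tested genes lower and 0.00854% higher. At an unadjusted p under 0.05, 9 of the 39 members appeared, 8 of them higher, against 12% of all tested genes. The highest values were 1.56 for Snord22 (SE 0.39; limma adjusted p 0.26) and 0.96 for Rny1 (SE 0.22; limma adjusted p 0.25). With a trend of the variance on signal level in the limma moderation, Rny1 passed.

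**Figure D3:**
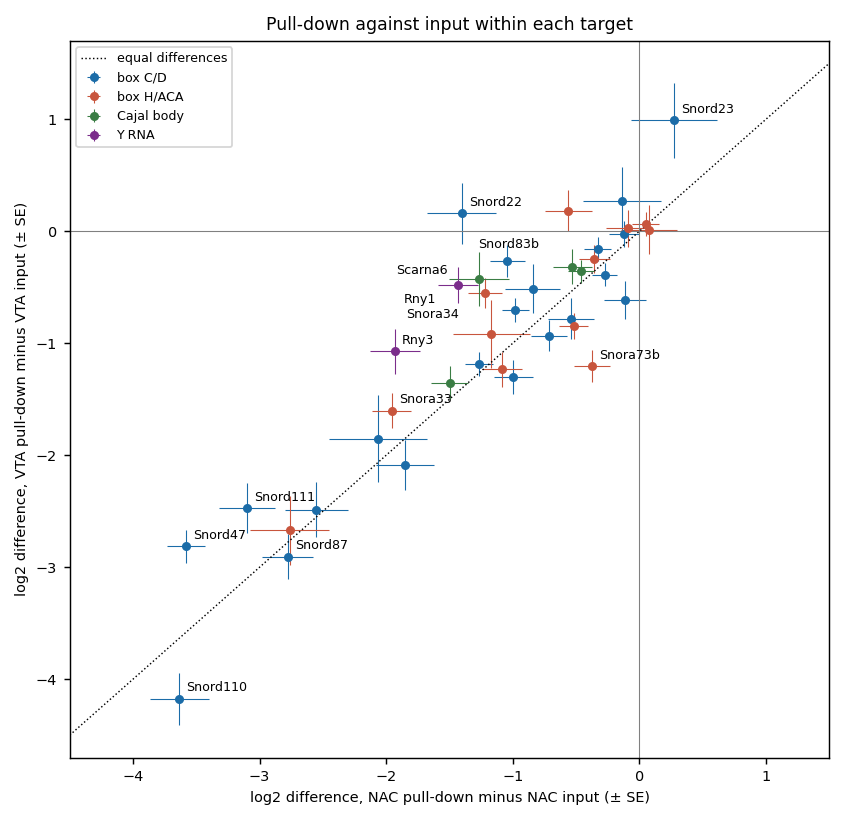
Log2 difference between pull-down and input of the 39 tested members, in NAC on the horizontal axis and in VTA on the vertical axis (bars, ± SE; dotted line, equal differences). Most points lie at negative values on both axes and near the line, Rny1, Rny3, Snord22 and Scarna6 above it, and Snora73b (−1.20 in VTA and −0.37 in NAC) below it.

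Between the pull-downs themselves, 5 members were higher in VTA than in NAC and 0 lower, beside 0.418% of tested genes higher and 2.05% lower. At an unadjusted p under 0.05 limma gave 13 higher and 2 lower members, and the share of all tested genes was not counted. The values for Rny1 were 10.90 and 10.82 in VTA pull-downs, against 9.83 and 10.13 in NAC pull-downs, and its inputs differed by −0.07 (SE 0.16), which did not pass. It was 0.88 higher (SE 0.16), or 1.84-fold, with a limma adjusted p of 0.015. Rny3 was 0.95 higher (SE 0.20; limma adjusted p 0.036), with both VTA values above both NAC values.

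The other 3 were box H/ACA RNAs. Snora34 had values of 7.21 and 7.35 in VTA pull-downs, against 6.49 and 6.37 in NAC pull-downs, a difference of 0.85 (SE 0.13; limma adjusted p 0.0080). Snora23 had 7.86 and 8.08 in VTA pull-downs, against 7.16 and 7.11 in NAC pull-downs, a difference of 0.83 (SE 0.18; limma adjusted p 0.043). Both showed tight pairs with no overlap. Snora73a was 0.77 higher (SE 0.16; limma adjusted p 0.031), with inputs that differed the same way. Each of its pull-downs lay under the array median and it passed the filter on inputs alone, so its call is a description. Over all 39 members, 28 had the higher mean in VTA pull-downs, where 40.4% of tested genes did.

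These calls were sensitive to single arrays. Without the first NAC pull-down 2 remained (Snora34 and Snora73a), and 2 without the first VTA pull-down (Snora34 and Rny3) or without the second (Snora34 and Rny1). Without the second NAC pull-down 3 were called, Rny1 and Snora34 higher and Snord110 lower. Without the first or the second NAC input 3 were called, Rny1, Snora23 and Snora34. Without the first or the second VTA input 5 were called, Rny1, Rny3, Snora34, Snora73a and Snord22, and Snora23 did not pass (limma adjusted p 0.058). Snora23 was thus called in 2 of the 8 fits without 1 array. With only the 4 pull-down arrays, Rny3 and Snora73a did not pass (limma adjusted p 0.11 and 0.059), and Snord22 did. Snora34 was called in each of the 8 fits without 1 array, with differences of 0.78 to 0.92 and limma adjusted p-values of 0.0047 to 0.048. With all 22180 genes in the fit, none of the 5 passed (limma adjusted p 0.064 for Snora34 and 0.093 for Rny1), and at an unadjusted p under 0.05 limma gave 19 higher and 4 lower members of 80. Rpph1, the RNA of ribonuclease P and another polymerase III product, also differed between the pull-downs (0.67, limma adjusted p 0.021), while Rn7sk, likewise made by polymerase III, differed by 0.04 and did not pass (limma adjusted p 0.88). Cell type markers differed too. In VTA pull-downs the astrocyte gene Gfap was 1.22 lower (limma adjusted p 0.00011), 1 of 9 astrocyte markers called. Of 9 microglia markers 1 was higher and 3 were lower. Of 9 projection neuron markers 2 were higher, the deep-layer genes Bcl11b (0.73, limma adjusted p 0.0050) and Fezf2 (0.51, limma adjusted p 0.022). No interneuron, oligodendrocyte or endothelial marker passed. The part of these in the members' values was not tested.

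**Figure D4:**
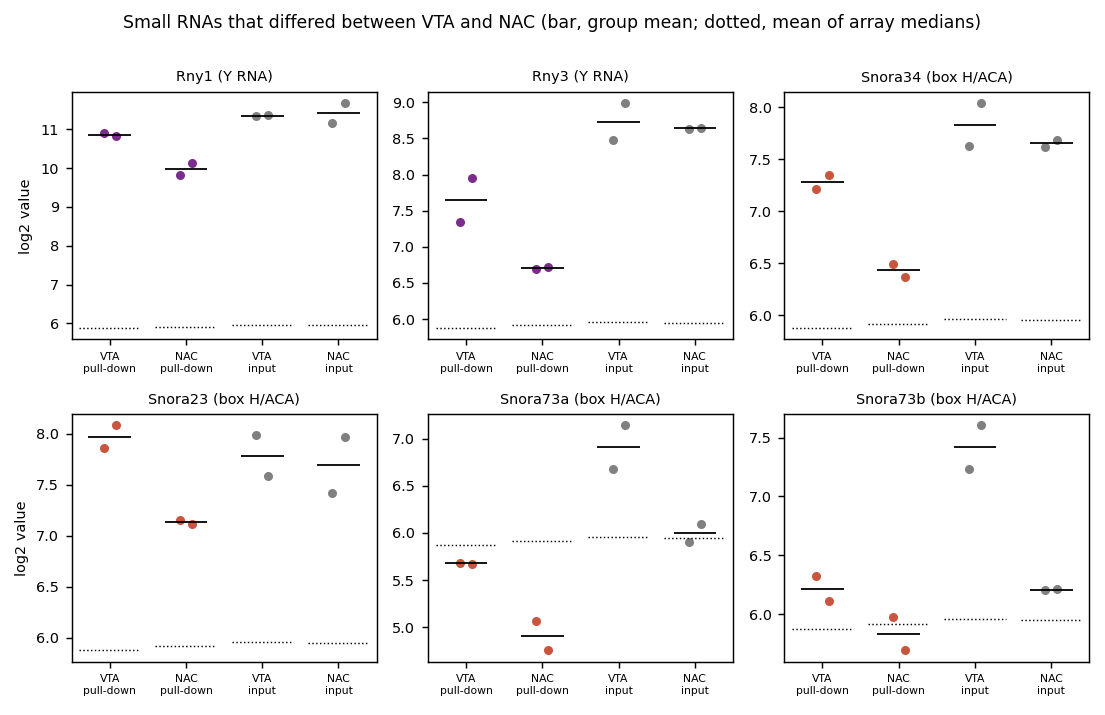
Log2 values on each array of the members called between VTA and NAC and higher in VTA (points, arrays; bars, mean of 2 arrays; dotted lines, mean of the array medians), with VTA left of NAC. Rny1, Rny3, Snora34 and Snora23 differ in the pull-downs with inputs that overlap, while Snora73a and Snora73b are higher in VTA inputs.

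Between the inputs, 2 members were higher in VTA than in NAC and 1 lower, beside 0.12% of tested genes higher and 1.38% lower. Snora73b had values of 7.24 and 7.60 in VTA inputs, against 6.20 and 6.21 in NAC inputs, a difference of 1.21 (SE 0.14; limma adjusted p 0.0010). Snora73a was 0.91 higher (SE 0.16; limma adjusted p 0.014), with VTA inputs of 6.68 and 7.14 and NAC inputs of 5.90 and 6.09. Snord83b had 5.19 and 5.59 in VTA inputs, against 6.17 and 6.40 in NAC inputs, a difference of −0.89 (SE 0.14; limma adjusted p 0.0075). Snord83b exceeded the array median in the NAC inputs only, so its call is a description, and without the filter it did not pass (limma adjusted p 0.056). In none of the 3 did the pairs overlap. Snora73a did not pass without the first NAC input (0.82, limma adjusted p 0.17), the second NAC input (1.01, limma adjusted p 0.074) or the second VTA input (0.68, limma adjusted p 0.15). Snord83b did not pass without the second NAC input (−0.77, limma adjusted p 0.12) or the first VTA input (−0.69, limma adjusted p 0.100), and without the second NAC input 1 member was called, Snora73b. Of the 9 microglia markers, 1 was higher and 4 were lower in VTA inputs. Of the astrocyte markers Gfap was lower, with 8.74 and 8.74 in VTA inputs against 9.65 and 9.50 in NAC inputs (−0.84, limma adjusted p 0.0014). The tag candidate Rpl10a was lower too (−0.82, limma adjusted p 0.013). No projection neuron, interneuron, oligodendrocyte or endothelial marker passed, and the part of these genes in these values was not tested.

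The members were also set beside the genes that hold them, since most of these RNAs are cut from introns. The RefSeq table (GRCm38.p6) listed all 80, and 30 of the 39 tested members lay within the span of exactly 1 other gene, 20 of them in protein-coding genes and 10 in long noncoding RNA genes. The table gives no strand, so a span is not proof of a host. Another 4 lay within several genes, and 5 within none: Rny1, Rny3, Scarna2, Snord13 and Snord89. For 23 members the host was tested too. In 19 of the 23 the small RNA had the lower difference. Among the 23, Snord111, Snora16a, Snord99, Snord15a, Snord17, Snord83b and Snora7a exceeded the array median in inputs only, so this count is a description. The 20 distinct hosts ran from −0.44 to 0.41 with a median of −0.09. Of these hosts 6 were lower and 2 higher, beside 32% of all tested genes lower and 9.6% higher.

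Snord110 fell by 3.90 on the log2 scale while Nop56, its host and itself a core protein of box C/D particles, fell by 0.39 (SE 0.07). Snord111 differed by −2.79 and its host Sf3b3, a splicing factor gene, by −0.37. Snora33 differed by −1.78 and its host Rps12 by 0.19, which did not pass. Some members of 1 host lay close together and others far apart, and the differences between them were not tested. Within Snhg12 (0.20, did not pass), a noncoding host of several small nucleolar RNAs, Snora16a differed by −2.72, Snord99 by −2.52 and Snora44 by −0.30. Within the noncoding 2410006H16Rik (0.12, did not pass), Snord49b differed by −1.97 and Snord65 by 0.06. Within Snhg3, whose own level was not tested, Snora73a differed by −1.16 and Snora73b by −0.79. A probe set inside an intron can also bind the unspliced host transcript, and that signal cannot be told apart here from the finished small RNA.

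**Figure D5:**
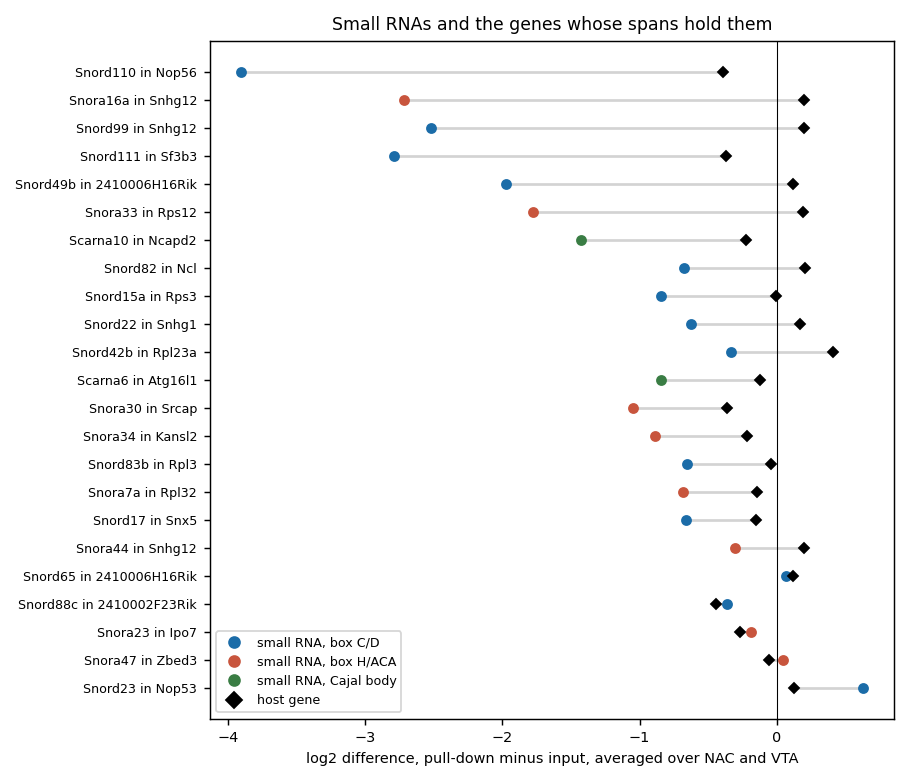
Log2 difference between pull-down and input, averaged over the targets, for 23 members (coloured circles) and for the tested gene whose span holds each (black diamonds), ordered by the difference of the member minus that of the gene. The hosts lie between −0.44 and 0.41, and the circles reach −3.90 for Snord110.

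The 3 genes that hold at least 2 tested members each are Snhg12, 2410006H16Rik and Snhg3, and the start of each is shown because its small RNAs share that promoter. Hosts of this kind are known for a run of pyrimidines at the transcription start. Only the letters CTTT, a short form of such a run, were searched. The search took only the strand printed below, which reads as the RNA does, within 20 bases on either side of the RefSeq start. Each sequence holds 50 bases before the start and 50 from it, from RefSeq on GRCm38.p6, with the motif in capitals.
2410006H16Rik (chr11:62602827-62602926, plus strand): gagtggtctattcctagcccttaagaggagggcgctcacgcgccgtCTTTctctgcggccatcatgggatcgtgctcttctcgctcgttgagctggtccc
Snhg12 (chr4:132308628-132308727, plus strand): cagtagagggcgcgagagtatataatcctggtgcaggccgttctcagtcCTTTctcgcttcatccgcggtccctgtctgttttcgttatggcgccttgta
Snhg3 (chr4:132353637-132353736, minus strand): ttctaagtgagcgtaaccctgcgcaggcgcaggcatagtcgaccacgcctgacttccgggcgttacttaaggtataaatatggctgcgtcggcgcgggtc
The letters were found for 2410006H16Rik and Snhg12 and not in this window for Snhg3. Other runs of pyrimidines were not searched, so a window without CTTT can still hold such a run. Of 32851 RefSeq promoters searched in the same way, 5221, or 15.9%, held them. Snora16a and Snora44, which share the Snhg12 start, differed by −2.72 and −0.30.

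Genes for the proteins of these particles moved in both directions, beside 32% of all tested genes lower and 9.6% higher in the pull-downs. Of the box C/D core proteins, Nop56 fell by 0.39 (limma adjusted p 0.0019), while Nop58 (0.12) and Snu13 (0.18) did not pass. Fibrillarin was not analysed here. Of the box H/ACA core, Nhp2 rose by 0.39 (limma adjusted p 0.0031) and Nop10 by 0.25 (limma adjusted p 0.039), while Gar1 (0.15) and Dkc1, the dyskerin gene (−0.06), did not pass. Among 11 assembly factors 1 fell, Shq1 (−0.50), and 2 rose, Rrp9 (0.29) and Rpap3 (0.22). Of 6 Cajal body proteins Tgs1, which caps small nuclear and nucleolar RNAs, fell by 0.49 and Smn1, the motor neuron survival gene, rose by 0.38.

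Of 10 nucleolar proteins 5 fell and 2 rose (background 32% and 9.6% of tested genes), among them the chaperone Npm1 (0.52), the processing factor Utp20 (−0.40) and the methyltransferase Nop2 (−0.32). Among 6 Y RNA binding proteins, Ro60 fell by 0.31 (limma adjusted p 0.014) and Ssb, the La protein that binds fresh polymerase III transcripts, rose by 0.33 (limma adjusted p 0.0061). The medians of these 6 lists ran from −0.19 to 0.20, beside −0.11 over all tested genes.

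Other short or nuclear RNAs were read beside the members. Of 4 other short structured RNAs, Rn7sk, the RNA that holds back transcription elongation, fell by 0.21 (limma adjusted p 0.036). Rpph1 (−0.18), Rnu11 (0.04) and Rnu12 (0.11) did not pass. Of 77 tested microRNA genes 8 fell and 22 rose, with a median of 0.16, beside 32% of all tested genes lower, 9.6% higher and a median of −0.11. Left out here were 2 long host genes of microRNAs whose names match, Mir100hg (−0.46), which fell, and Mir124-2hg (−0.05), which did not pass. Of these, Mir5112 was 1.45 higher (limma adjusted p 0.00020), and Mir493 was 1.04 lower (limma adjusted p 0.0022). Of 9 nuclear long noncoding RNAs 5 fell and 1 rose, against the same background, with a median of −0.28. Snhg14, the long host of the Snord116 cluster, fell by 0.60 and Rian, a host of box C/D RNAs in an imprinted region, by 0.53, while Malat1 (−0.11) did not pass.

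The mean of the 39 members was 6.37 and 6.40 in VTA pull-downs and 6.18 and 6.08 in NAC pull-downs, against 7.25 and 7.44 in VTA inputs and 7.30 and 7.27 in NAC inputs. The genes outside the family whose values over the 8 arrays followed this mean most closely were Tmem74 (Pearson r 0.992), Plpp3 (0.991), Gm26504 (0.990), Man2a2 (0.990) and Gja1 (0.989). These are descriptions over 8 arrays that share the split into pull-down and input. Their differences were −0.93 for Tmem74, −0.58 for Plpp3, −1.31 for Gm26504, −0.31 for Man2a2 and −0.59 for Gja1. Gm26504 is the gene that the annotation places on probe sets of the Snord116 cluster.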

How the data were processed

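RNA of 8 samples was measured on Affymetrix arrays as biotinylated cRNA, per the labels, after Trizol and a Qiagen kit; the size range this keeps is not stated. The authors deposited log2 values of 41345 probe sets for each array. Per the submitters' processing notes, Transcriptome Analysis Console produced them; its version and settings are not given. The deposited values were used without further scaling, which assumes like amounts of RNA on each array. The platform annotation gave 1 symbol to 23521 probe sets, several to 1814 and none to 16010.

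Limma 3.58.1 (R 4.3.3; lmFit, eBayes) fitted 1 mean per group over the 8 arrays together, with two-sided tests and Benjamini-Hochberg adjustment over the 11712 tested genes at 0.05, for 6 comparisons. Its steps were tested on simulated data. The number of arrays limits the precision. Members and lists were chosen with earlier results of these data known. Named members were the 6, 4 and 3 with the largest averaged difference among box C/D, box H/ACA and Cajal body RNAs, both Y RNAs, those leaning higher, the 4 smallest differences, and up to 8 called in each other comparison. Of lists, the core proteins and at most 3 others were named. Further members, Rnu12, Malat1, the cell type markers and the microRNA host genes were named after their values were seen. Alternatives were array centring, quantile normalization, other filters, the mean of a gene's probe sets, a variance trend, replicate blocks, only the 4 arrays compared, and leaving out each array.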

Additional observations from a re-analysis of the deposited data

How the results depend on the processing

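The count of members called in the averaged comparison, 32, was 29 with arrays centred on their medians (28 lower and 1 higher, Snord23). It was 28 after quantile normalization, 44 of 80 without a filter and 25 when 4 arrays had to exceed the median. It was 33 with a variance trend (32 lower and 1 higher, Snord23) and 32 with either replicate block. Over all genes 2395 were lower and 1056 higher without a filter, and 3673 and 1075 with the stricter filter. A variance trend gave 3969 lower and 1204 higher. The replicate number as a block gave 3733 and 1149, and pull-down tied to input as the block 3883 and 1205. Leaving out 1 array gave 29 to 32 members in the averaged comparison, 19 to 27 in VTA, 17 to 27 in NAC, 2 to 5 between the pull-downs, 1 to 4 between the inputs and 0 to 0 for the difference of enrichment. The genes called over all tested genes also changed with the array left out, so these member counts are descriptions. In the averaged comparison without 1 array, the median difference was −0.88 to −0.75 for members and −0.13 to −0.09 for all tested genes. Between the pull-downs 0 members were called without a filter, beside 100 genes lower and 13 higher. Between the inputs 1 was called without a filter and 1 with the stricter filter. With only the 4 arrays compared 5 were called (Snora73a, Snora73b and Snord71 higher, Snord82 and Snord83b lower). Over all genes these fits called 136, 142 and 207 lower and 4, 11 and 50 higher. The difference of enrichment gave 1 with a variance trend, beside 21 of all tested genes lower and 9 higher. Centring moved the median of all tested genes to 0.03, against −0.11 as deposited, and the split of calls over all genes to 1753 lower and 2498 higher, against 2699 and 1648 after quantile normalization and 3742 and 1124 without either. Snora21 turned to 0.10 with centring and 0.044 after quantile normalization, and Snord55 to 0.061 and 0.019. Snora21 ranged over −0.17 to 0.11, Snora47 over −0.18 to 0.27 and Snord65 over −0.17 to 0.30 without 1 array. The cause was not tested.

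Snora44, Snord22, Snord8 and Snord88c were not called with centring, after quantile normalization or without a filter, and lost the call without 1 array in 4, 4, 6 and 5 of the 8 fits. Adjusted p-values then reached 0.085 for Snora44 without the first NAC input, 0.091 for Snord22 without the second NAC input, 0.095 for Snord8 without the second NAC input and 0.099 for Snord88c without the first NAC input. Samples share only a replicate number. The correlation of the deviations of same-numbered arrays was −0.13 between the pull-downs, 0.22 between the inputs, −0.02 within VTA and 0.30 within NAC. With the number as a block, Snora23 was not called between the pull-downs (limma adjusted p 0.058) nor Snord23 in VTA (0.061), and with pull-down tied to input as the block Snord23 in VTA was not called (0.064).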

Other observations

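Beyond the members, 46 probe sets carried a small nucleolar or Cajal body RNA symbol together with other symbols and so named no single gene. Of these, 16 stood for the Snord116 cluster, box C/D RNAs of an imprinted region that the brain expresses strongly, and held identical values. They read 10.03 and 10.02 in VTA pull-downs and 9.88 and 9.85 in NAC pull-downs, against 11.23 and 11.25 in VTA inputs and 11.21 and 11.32 in NAC inputs. All 4 pull-downs lay below all 4 inputs, with a difference of −1.31. Of the other 30 probe sets, 25 had the lower mean in pull-downs, in 12 every pull-down lay below every input and in 0 above, and the median difference was −0.29. The lowest of these named Snord68 with Rpl13, at 3.46 and 2.97 in VTA pull-downs and 3.89 and 4.37 in NAC pull-downs, against 6.71 and 6.61 in VTA inputs and 6.81 and 6.86 in NAC inputs. The highest named Snord4a with Tlcd1 (0.29). None of these was tested.

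A second probe set of Snora33 lay at 3.03 to 3.46 in pull-downs and 3.14 to 3.23 in inputs, with a difference of 0.08, where the probe set used differed by −1.78. The cause was not tested. The 2 probe sets of Snora19 held identical values.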
